A study of Mus musculus with 6 samples.

Results

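YAP and TAZ, encoded by Yap1 and Wwtr1, were followed in explanted mouse pancreatic acini together with 7 genes widely used as readouts of their activity: Ccn1, Ccn2, Ankrd1, Amotl2, Lats2, Ajuba and Axl. The 9 genes were taken by name from a table of 56953 genes, and all 9 were among the 14738 genes that passed the filter on low counts. RNA was sequenced from acini, the enzyme-secreting units of the exocrine pancreas, at day 3 of culture under conditions that induce acinar-to-ductal metaplasia (ADM), the passage of acinar cells to a duct-like state. There were 6 libraries in 3 groups of 2. The WT group came from untreated acini of wild-type mice labelled 10 and 11 weeks old. The DD group came from untreated acini of mice labelled DKK3 knockout, 12 and 13 weeks old. The DD + rDKK3 group was DKK3 knockout acini of mice labelled 14 and 15 weeks old, cultured with recombinant DKK3, the secreted glycoprotein encoded by Dkk3. WT 2 was labelled female and the other 5 libraries male.

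All groups shared culture in Matrigel and Waymouth's medium with fetal bovine serum and dexamethasone, and none carried an oncogene. The null allele is ubiquitous rather than acinar-specific and was made by replacing exon 2, which encodes the secretion signal, so an intracellular product started further downstream can still be transcribed. Labelled age differed between the groups without overlap, so age and group cannot be told apart. Within each group the labelled ages differed, and in WT the labelled sex too, but no label states that the libraries came from separate animals. The p-values measure only the spread between these libraries, which may be partly technical.

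YAP and TAZ are paralogous transcriptional co-activators that lack a DNA-binding domain and act mainly through the TEAD transcription factors. When the Hippo kinases MST and LATS are active they phosphorylate both proteins, which are then held in the cytoplasm and degraded. RNA of Yap1 and Wwtr1 therefore does not show how much of either protein is active, and the RNA of target genes is commonly read in its place. In the pancreas, YAP and TAZ are low in resting acini, present in ducts and stroma, and known to take part in ADM.

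The libraries held between 12018473 and 19750401 counts, and levels are given in CPM, in which each count is divided by the TMM-scaled total of its library. The targeted gene was at the limit of detection in every library, with Dkk3 counts of 10 and 1 for WT, 11 and 9 for DD, then 5 and 5 for DD + rDKK3, so its RNA did not check the genotype labels. The 12 acinar markers, all of them measured, summed to 173200 and 133600 CPM for WT, 114600 and 100400 CPM for DD, then 132800 and 108900 CPM for DD + rDKK3. Both null groups lay below WT, DD + rDKK3 1 only slightly. Secreted enzymes made up most of that sum. Among the transcription factors of the list, mean Ptf1a was 169.3, 225.6 and 274.4 CPM in WT, DD and DD + rDKK3. Mean Bhlha15 was 41.59, 61.15 and 75.36 CPM. DD overlapped WT for both, and the groups overlapped for Rbpjl and Nr5a2. Libraries DD 2 and DD + rDKK3 2 stood apart in markers of other cells. The 12 fibroblast and stellate cell markers summed to 758 and 854 CPM there, against 44.2 to 152 CPM in the other 4 libraries. Member results that move with those libraries are given with and without them.

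The promoters of a pair of targets are shown because Ajuba had one of the lowest p-values of the 9 genes in DD against WT, whereas Ccn1 lay near 0 in the same comparison. Each is the 250 bases before the annotated start of the canonical transcript in GRCm39, written 5′ to 3′ on the gene's strand. Capitals mark the TEAD motif GGAATG on either strand, where CATTCC is its reverse complement. Ccn1 lies at chr3:145355739-145355988 (- strand) and Ajuba at chr14:54815016-54815265 (- strand).
Ccn1: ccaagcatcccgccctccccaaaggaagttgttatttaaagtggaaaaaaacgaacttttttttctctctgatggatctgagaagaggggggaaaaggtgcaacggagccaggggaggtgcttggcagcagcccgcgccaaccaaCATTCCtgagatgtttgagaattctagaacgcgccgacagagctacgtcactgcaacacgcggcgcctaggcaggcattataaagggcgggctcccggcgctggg
Ajuba: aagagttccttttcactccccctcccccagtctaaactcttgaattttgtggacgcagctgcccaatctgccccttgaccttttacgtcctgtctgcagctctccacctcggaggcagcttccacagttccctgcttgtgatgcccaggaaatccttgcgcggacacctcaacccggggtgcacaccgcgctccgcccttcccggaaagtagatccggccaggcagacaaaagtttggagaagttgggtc

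The Ccn1 window held 1 TEAD motif, on the reverse strand and 105 bases before the start, and the Ajuba window held none. Of 21757 promoters of protein-coding genes searched in the same way, 12.1% held at least 1 such motif. Amotl2 held 2 motifs, 235 and 135 bases before its start, a number reached or passed by 0.938% of promoters, although its window overlaps the first exons of other Amotl2 transcripts. Yap1, Wwtr1 and Axl held 1 each, and Ankrd1 and Lats2 held none within 250 bases. The Lats2 window lies wholly, and the Wwtr1 window partly, inside the span annotated for its own gene, and starts further upstream were not searched. The AP-1 motif TGANTCA, present in 6.18% of promoters on either strand, was found in none of these 8 windows. A match describes letters, not binding, and enhancers, where many YAP/TAZ-bound elements lie, were not searched.

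**Figure D1:**
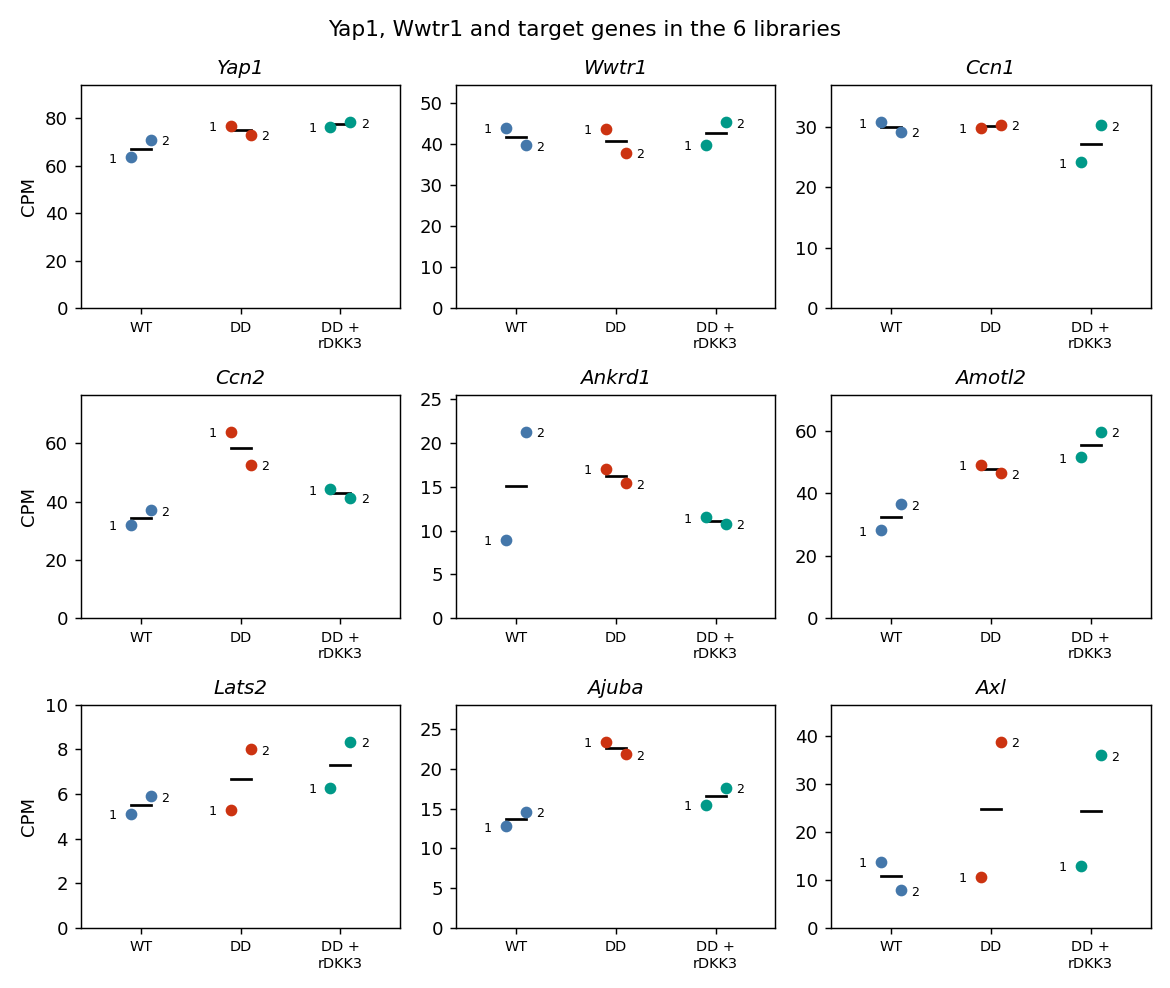
Levels of the 9 genes in CPM (y axes, each from 0) in the 6 libraries, coloured by group on the x axis, with the number of each library beside its point and a black line at the mean of the 2 libraries. Ccn2 and Ajuba lie higher in both DD libraries than in any other library, Amotl2 is lowest in the WT libraries, and Axl is high in library 2 of DD and of DD + rDKK3 alone.

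Both co-activators were expressed in every library, and neither passed the test in any comparison. Yap1 was at 63.5 and 70.8 CPM in WT, 76.8 and 73.1 CPM in DD, and 76.4 and 78.4 CPM in DD + rDKK3. Both null groups thus lay above WT without overlap, by a log2 fold change of 0.16 (SE 0.14) for DD and 0.20 (SE 0.14) for DD + rDKK3. In edgeR's quasi-likelihood test with Benjamini-Hochberg adjustment, the adjusted p was 0.686 and 0.474. The 95% interval for DD against WT ran from -0.18 to 0.49.

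Wwtr1, which encodes TAZ, was at 43.9 and 39.6 CPM in WT, 43.7 and 37.9 CPM in DD, and 39.8 and 45.3 CPM in DD + rDKK3. The 3 groups overlapped. Its log2 fold change was -0.03 (SE 0.15) in DD against WT, 0.06 (SE 0.15) in DD + rDKK3 against DD and 0.03 (SE 0.15) in DD + rDKK3 against WT. Of the 9 genes, Wwtr1 had the narrowest spread over the 6 libraries, the highest level being 1.20-fold the lowest, followed by Yap1 at 1.23-fold. The ratio of Yap1 to Wwtr1 counts, which is free of the scaling between libraries, was 1.45 and 1.79 for WT, 1.76 and 1.93 for DD, then 1.92 and 1.73 for DD + rDKK3.

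Compared per length of exonic sequence, the order of the 9 genes in WT was Ccn1 at 14.7 ± 0.557 CPM per kilobase (SD, n = 2), Ccn2 at 10.8 ± 1.11, Yap1 at 7.16 ± 0.554, Ankrd1 at 5.07 ± 2.93, Amotl2 at 4.58 ± 0.827, Ajuba at 3.60 ± 0.342, Wwtr1 at 3.53 ± 0.256, Axl at 1.17 ± 0.459 and Lats2 at 0.525 ± 0.0534. The 2 WT libraries of Ankrd1, at 3.00 and 7.13 CPM per kilobase, spanned the levels of Amotl2, Ajuba and Wwtr1 and the lower Yap1 value, and Ajuba and Wwtr1 overlapped each other. The other neighbours in this order did not overlap. In DD the secreted targets changed places, with Ccn2 at 18.3 ± 2.50 CPM per kilobase (SD, n = 2) above Ccn1 at 14.8 ± 0.146, and in DD + rDKK3 they overlapped at 13.4 ± 0.654 and 13.4 ± 2.14. The lengths came from all exons of GENCODE M39, in which the coordinates of none of the 9 genes matched those used for counting. The order between genes is therefore approximate.

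Ccn2 had the lowest unadjusted p of the 9 genes in DD against WT. It encodes CTGF, a secreted matricellular protein and a textbook YAP/TEAD target. Ccn2 was at 31.9 and 37.0 CPM in WT, 63.9 and 52.7 CPM in DD, and 44.3 and 41.3 CPM in DD + rDKK3. The 3 groups did not overlap, with DD highest and DD + rDKK3 between DD and WT. The log2 fold change was 0.76 (SE 0.16) in DD against WT, with a 95% interval from 0.38 to 1.13, and -0.45 (SE 0.16) in DD + rDKK3 against DD. DD + rDKK3 remained 0.31 (SE 0.16) above WT on that scale. The first 2 comparisons share the DD libraries and are not independent of each other.

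Neither passed adjustment over 14738 genes. For DD against WT the unadjusted p of Ccn2 was 0.00175, rank 54 among all genes, and edgeR's adjusted p was 0.442. For DD + rDKK3 against DD the unadjusted p was 0.0239 and the adjusted p 1.00. DESeq2 gave Ccn2 a log2 fold change of 0.77 in DD against WT with an adjusted p of 0.0266, and over all alternatives the adjusted p of that comparison ran from 0.00200 to 0.952. Leaving out each library in turn kept the direction of both comparisons.

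Ccn1, the closest relative of Ccn2 among the 9 genes, encodes the secreted matricellular protein CYR61. It was at 30.8 and 29.2 CPM in WT, 29.9 and 30.3 CPM in DD, and 24.1 and 30.2 CPM in DD + rDKK3. DD lay inside the WT range, and the log2 fold change of 0.01 (SE 0.16) in DD against WT had a 95% interval from -0.37 to 0.38. Its log2 fold change in DD + rDKK3 against DD was -0.15 (SE 0.16), and the lower level came from DD + rDKK3 1 alone.

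The ratio of Ccn2 to Ccn1 counts within a library was 1.04 and 1.27 for WT, 2.14 and 1.74 for DD, then 1.84 and 1.37 for DD + rDKK3. Every null library had a higher ratio than either WT library, and the DD and DD + rDKK3 libraries overlapped. The ratio of Ccn2 to Ajuba counts was flatter, at 2.50 and 2.53 for WT, 2.73 and 2.41 for DD, then 2.86 and 2.34 for DD + rDKK3. All 3 groups overlapped for that ratio.

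**Figure D2:**
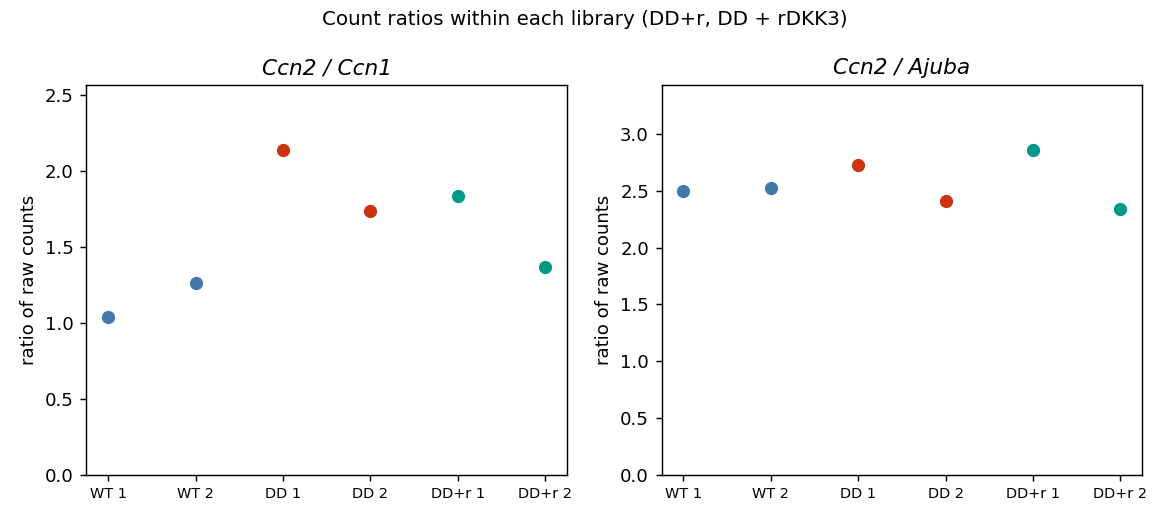
Ratio of raw counts of Ccn2 to Ccn1 (left) and of Ccn2 to Ajuba (right), y axes from 0, in each of the 6 libraries on the x axis, coloured by group. The ratio to Ccn1 runs from 1.04 to 1.27 in WT and from 1.37 to 2.14 in the null libraries, whereas the ratio to Ajuba stays between 2.34 and 2.86 throughout.

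Ajuba, a LIM-domain adaptor that binds and restrains LATS kinases at cell junctions, had the same order of groups as Ccn2. It was at 12.8 and 14.6 CPM in WT, 23.4 and 21.9 CPM in DD, and 15.5 and 17.6 CPM in DD + rDKK3. The groups did not overlap, and DD was again highest and WT lowest. The log2 fold change was 0.72 (SE 0.17; unadjusted p 0.00332, rank 91) in DD against WT and -0.45 (SE 0.17; unadjusted p 0.0293) in DD + rDKK3 against DD, with edgeR adjusted p-values of 0.532 and 1.00. The log2 fold change of DD + rDKK3 against WT was 0.27 (SE 0.17). Over the alternatives the adjusted p of DD against WT ran from 0.0372 to 0.952.

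Within DD, Ccn2 and Ajuba were lower in library 2, where the fibroblast markers were high, than in library 1. Within DD + rDKK3, Ccn2 was lower and Ajuba higher in library 2. Without DD 2 and DD + rDKK3 2, the log2 fold change of Ccn2 was 0.89 in DD against WT and -0.52 in DD + rDKK3 against DD, and that of Ajuba was 0.77 and -0.59.

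Markers of the cultured acinar cells, and Msln of the mesothelial list, also lay at different levels in the groups in which Ccn2 and Ajuba differed. Of the 12 acinar markers, 9 had a log2 fold change below 0 in DD against WT, beside 48.3% of all genes tested. Their median was -0.43, and 5 were lower at an unadjusted p under 0.05 in the edgeR test, beside 588 of 14738 genes. All 12 were above 0 in DD + rDKK3 against DD, beside 49.5% of all genes, with a median of 0.22. The 4 mesothelial markers summed to 8.55 and 8.43 CPM for WT, 14.7 and 34.7 CPM for DD, then 12.6 and 13.8 CPM for DD + rDKK3, the same order of groups as Ccn2 and Ajuba and likewise without overlap. Most of that sum was Msln, at 7.76 and 8.43 CPM in WT, 14.2 and 32.6 CPM in DD, and 12.0 and 12.2 CPM in DD + rDKK3. Upk3b and Lrrn4 did not pass the filter, and these and Wt1 were at 0 in at least 1 library. Wt1 overlapped between the groups, at 0.688 and 0 CPM in WT, 0.237 and 1.88 CPM in DD, and 0.475 and 1.45 CPM in DD + rDKK3. The order of the sum is thus that of Msln, not of the list. No marker of either list passed edgeR's adjusted test. The part of these markers in the Ccn2 and Ajuba results was not tested.

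Ankrd1, a nuclear ankyrin-repeat protein and strongly inducible YAP target, was the least reproducible gene in WT. It was at 8.94 and 21.3 CPM in WT, 17.0 and 15.4 CPM in DD, and 11.5 and 10.8 CPM in DD + rDKK3. These WT values rested on 91 and 303 counts, whose 95% Poisson intervals of 7.20 to 11.0 CPM and 19.0 to 23.8 CPM, for counting error only, did not overlap. DD + rDKK3 lay below DD in both libraries, with a log2 fold change of -0.54 (SE 0.35; edgeR adjusted p 1.00). DD against WT was 0.09 (SE 0.35), and it was -0.38 without WT 1 and 0.87 without WT 2. DD + rDKK3 against WT was -0.45 (SE 0.35), and it was -0.91 without WT 1 and 0.32 without WT 2.

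Amotl2 encodes an angiomotin-family scaffold that binds YAP and retains it outside the nucleus, and as a target it forms a negative feedback loop. It was at 28.2 and 36.5 CPM in WT, 49.1 and 46.4 CPM in DD, and 51.6 and 59.8 CPM in DD + rDKK3. Both null groups were above WT without overlap, and DD + rDKK3 lay above DD. The log2 fold change was 0.56 (SE 0.17; unadjusted p 0.0122, rank 255) in DD against WT and 0.78 (SE 0.17; unadjusted p 0.00213, rank 37) in DD + rDKK3 against WT. The edgeR adjusted p-values were 0.586 and 0.322, and DESeq2 gave 0.0289 for the second comparison. Between DD and DD + rDKK3, Amotl2 had a log2 fold change of 0.22 (SE 0.17), of opposite sign to Ccn2 and Ajuba, and this was 0.08 without the second library of both null groups.

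Lats2, the Hippo kinase that YAP induces in another feedback loop, had the fewest counts of the 9 genes, from 52 in WT 1 to 155 in DD + rDKK3 2. It was at 5.11 and 5.90 CPM in WT, 5.30 and 7.995 CPM in DD, and 6.29 and 8.34 CPM in DD + rDKK3. The higher level in each null group was that of library 2, and DD overlapped WT. The log2 fold change was 0.27 (SE 0.28) in DD against WT, 0.14 (SE 0.28) in DD + rDKK3 against DD and 0.41 (SE 0.28) in DD + rDKK3 against WT. The first was -0.06 without DD 2 the second was -0.15 without DD 1 and -0.09 without DD + rDKK3 2, and the third was 0.19 without DD + rDKK3 2. The 95% Poisson interval of Lats2 in WT 1, 3.82 to 6.70 CPM, covered the values of WT 2, DD 1 and DD + rDKK3 1. Another protein-coding gene on the same strand shares 2955 exonic bases with Lats2 and held 0 or 1 counts in every library. Whether reads from the shared bases were left out of the Lats2 counts was not tested.

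**Figure D3:**
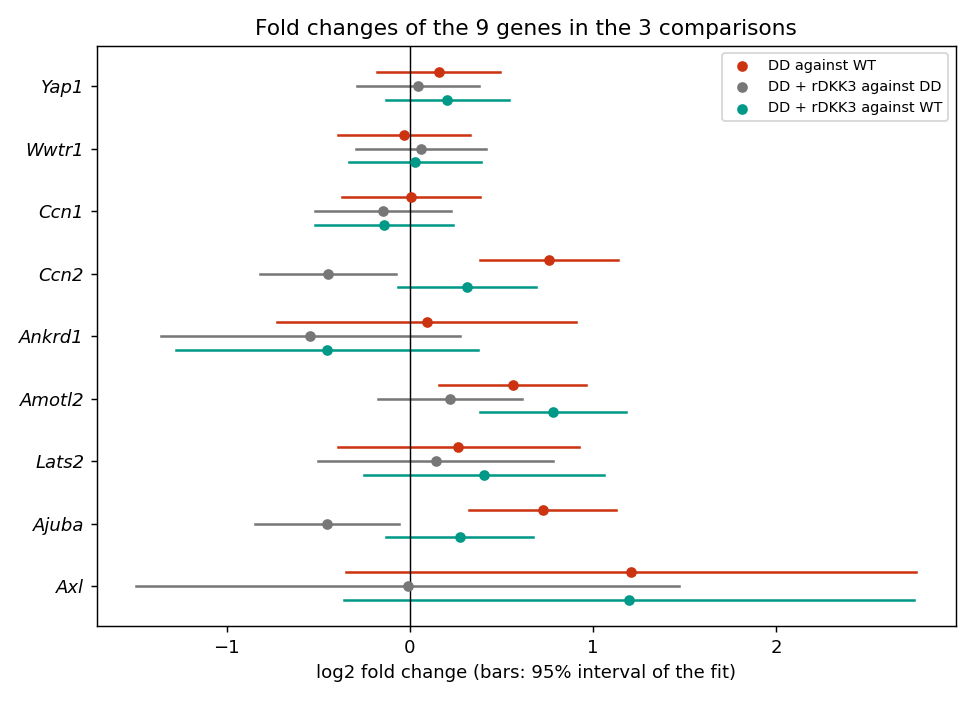
Log2 fold changes of the 9 genes (x axis) in the 3 comparisons, as points with the 95% interval of the edgeR fit, with a vertical line at 0. In DD against WT the intervals of Ccn2 (0.38 to 1.13), Ajuba and Amotl2 exclude 0 before adjustment, and the Axl interval (-0.35 to 2.76) is the widest.

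Axl had the widest spread and followed the stromal markers rather than the groups. It encodes a receptor tyrosine kinase of the TAM family, whose ligand is GAS6, and is known in fibroblasts, endothelium and macrophages as well as in epithelial cells. Axl was at 13.8 and 7.80 CPM in WT, 10.7 and 38.9 CPM in DD, and 12.9 and 36.0 CPM in DD + rDKK3. The first library of each null group lay inside the WT range, and the second lay above both WT libraries.

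The fitted log2 fold change of Axl was 1.21 (SE 0.67; 95% interval -0.35 to 2.76; edgeR adjusted p 0.590) in DD against WT and -0.01 (SE 0.64) in DD + rDKK3 against DD. Without DD 2 it was 0.01 in DD against WT. Without DD 2 and DD + rDKK3 2 together it was -0.0022 in DD against WT, and 0.28 in both comparisons of DD + rDKK3. The gene-wise biological coefficient of variation was 0.443 for Axl, against 0.125 for Yap1.

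The same libraries were high in the fibroblast and stellate cell markers, of which none of 12 was at 0 in any library. Their sum was 115 and 44.2 CPM in WT, 64.0 and 758 CPM in DD, and 152 and 854 CPM in DD + rDKK3. Col1a1 alone was at 252 and 305 CPM in the high libraries and at 10.5 to 49.8 CPM in the others. Des was the exception in the list, highest in WT 2 at 2.32 CPM and at 1.29 and 1.24 CPM in DD 2 and DD + rDKK3 2. The 7 macrophage markers summed to 109.5 and 57.1 CPM in WT, 67.5 and 225 CPM in DD, and 81.0 and 174 CPM in DD + rDKK3. Lyz2, at 133 and 85.4 CPM, was the largest part of the sum in DD 2 and DD + rDKK3 2. Adgre1, Csf1r and C1qb were also highest there, C1qb in DD + rDKK3 2 barely above WT 1. Cd68 was not, at 36.8 and 41.4 CPM there against 40.3 and 42.2 CPM in DD 1 and DD + rDKK3 1. C1qa and Ptprc in WT 1, at 19.55 and 1.08 CPM, lay inside the range of those libraries. The 5 endothelial markers, at 46.2 to 90.5 CPM, spanned a narrower range and were 85.8 CPM in WT 2, where Axl was lowest. The 9 ductal markers summed to 2540 and 1947 CPM in WT, 1840 and 2789 CPM in DD, and 1771 and 1941 CPM in DD + rDKK3. The part of the other cells in the Axl result was not tested. In bulk RNA, fewer cells of a type and less RNA per cell cannot be told apart.

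**Figure D4:**
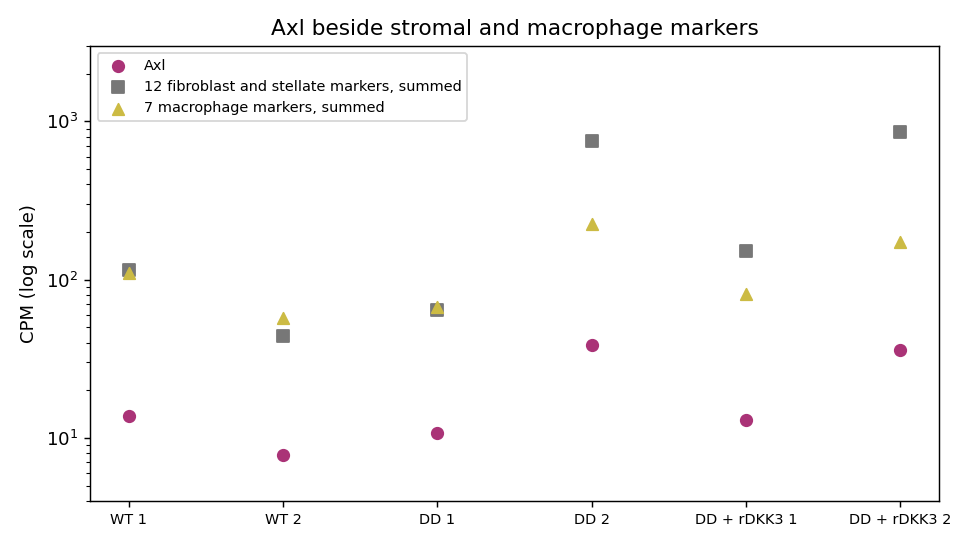
Axl (circles), the summed fibroblast and stellate markers (squares) and the summed macrophage markers (triangles) in CPM on a log axis, for each of the 6 libraries on the x axis. All 3 are high in DD 2 and DD + rDKK3 2, although not every marker in the sums is. Axl reaches 38.9 and 36.0 CPM there and the summed fibroblast markers 758 and 854 CPM.

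Set against all genes, no member was called. At an edgeR adjusted p under 0.05, 0 of 9 passed in DD against WT, where 0.0407% of all genes tested did, 0 of 9 in DD + rDKK3 against DD, where 0% did, and 0 of 9 in DD + rDKK3 against WT, where 0.0475% did. DESeq2 called 1, 0 and 1 members, among 78, 11 and 58 genes called in all. It gave no adjusted p to Ankrd1, Lats2, Ajuba and Axl in both comparisons of DD + rDKK3, so these could not be called there. With limma-voom, 0 members were called in each comparison. At an unadjusted p under 0.05 in the edgeR test, Ccn2, Ajuba and Amotl2 were higher in DD than in WT, 3 of 9 beside 4.27% of all genes. Ccn2 and Ajuba were lower in DD + rDKK3 than in DD, 2 of 9 beside 1.38%, and Amotl2 was higher in DD + rDKK3 than in WT, 1 of 9 beside 7.34%.

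By separation of the libraries, Yap1, Ccn2, Amotl2 and Ajuba were higher in DD than in WT without overlap, 44.4% of the members beside 18.1% of all genes. Ccn2, Ankrd1 and Ajuba were lower in DD + rDKK3 than in DD, 33.3% beside 14.4%. Yap1, Ccn2, Amotl2, Lats2 and Ajuba were higher in DD + rDKK3 than in WT, 55.6% beside 27.9%. The median log2 fold change of the 9 genes was 0.27, -0.01 and 0.27 in the 3 comparisons, beside 0.02, -0.0028 and 0.02 over all genes tested. Leaving out 1 library moved the first of these medians to between 0.16 (without DD 2) and 0.77 (without WT 2), and the second to between -0.33 (without DD + rDKK3 2) and 0.05 (without DD + rDKK3 1).

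The list of Hippo kinases and upstream regulators holds mostly genes that restrain YAP and TAZ, and also Limd1 and Wtip, relatives of Ajuba that restrain LATS. Of 26 listed genes, 25 were tested, Fat4 being below the filter, and 0 passed edgeR's adjusted test in any comparison. In DD against WT, 22 of 25 had a log2 fold change above 0, beside 51.7% of all genes tested, and 7 were higher at an unadjusted p under 0.05, beside 4.27%. The list median was 0.27, and leaving out 1 library moved it to between 0.18 (without DD 1) and 0.43 (without DD 2 or WT 2). Among the lowest p-values were those of Wwc2, a KIBRA-family activator of LATS (log2 fold change 0.61, SE 0.17), and Amot, the founding angiomotin (0.67, SE 0.25). Wwc2 was at 18.1 and 21.4 CPM in WT and 29.9 and 30.5 CPM in DD, without overlap.

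In DD + rDKK3 against WT, 23 of 25 were above 0, beside 51.6% of all genes, and 11 were higher at an unadjusted p under 0.05, beside 7.34%, with a median of 0.40. Amotl1 (0.59, SE 0.16), Wwc2 (0.64, SE 0.17) and Taok2, a kinase upstream of MST (0.70, SE 0.20), led the list. Amotl1, like its paralogue Amotl2, was lowest in WT at 48.9 and 59.8 CPM, at 75.1 and 70.4 CPM in DD, and highest in DD + rDKK3 at 80.2 and 84.1 CPM. The median in DD + rDKK3 against DD was 0.09, or 0.19 without DD 1 and 0.03 without DD 2, and the leading genes, Map4k4 (0.22, SE 0.16), Frmd6 (0.23, SE 0.17) and Limd1 (0.19, SE 0.15), were all above 0 but had no unadjusted p under 0.05. That median was -0.04 without the second library of both null groups.

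Among the TEAD factors and the VGLL proteins that compete for them, 0 of 6 passed in any comparison. Their median in DD against WT was 0.24, or 0.06 without WT 1 and 0.47 without WT 2. Tead1 was at 32.4 and 42.3 CPM in WT, 57.7 and 42.5 CPM in DD, and 55.6 and 55.2 CPM in DD + rDKK3, with log2 fold changes of 0.42 (SE 0.20) and 0.57 (SE 0.20) against WT. Tead2 lay in the other direction in DD, at -0.43 (SE 0.18) against WT, and was at 0.32 (SE 0.18) in DD + rDKK3 against DD. Tead4 was at 1.41 CPM or less in every library and was at 0.65 (SE 0.48) in DD + rDKK3 against WT, and Tead3 was at 0.28 (SE 0.23) in DD + rDKK3 against DD. Vgll3 was at 1.08 and 1.19 CPM in WT, 1.99 and 4.17 CPM in DD, and 2.01 and 5.59 CPM in DD + rDKK3, with log2 fold changes of 1.42 (SE 0.59) and 1.73 (SE 0.59) against WT. It was highest in the libraries with high fibroblast markers, and without them those values were 0.80 and 0.82.

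A list of 15 other genes reported as YAP/TAZ targets in epithelial cells was tested in full, and 0 passed. In DD against WT, 12 of 15 were above 0, beside 51.7% of all genes, and in DD + rDKK3 against DD 11 of 15 were below 0, beside 50.5%. The medians were 0.28 and -0.15. Without WT 2 the first was 0.74 and without DD 1 it was 0.56, and the second was -0.33 without DD 1 or DD + rDKK3 2 and -0.06 without DD 2. Myof, a membrane-repair protein of the ferlin family, was at 18.8 and 20.6 CPM in WT, 41.2 and 52.6 CPM in DD, and 31.0 and 48.1 CPM in DD + rDKK3, a log2 fold change of 1.25 (SE 0.24; edgeR adjusted p 0.393) in DD against WT and 1.00 (SE 0.24) in DD + rDKK3 against WT. Without the second library of both null groups these were 1.06 and 0.66. Dock5, an exchange factor for Rac, was at 9.53 and 14.2 CPM in WT, 26.8 and 24.6 CPM in DD, and 22.5 and 21.7 CPM in DD + rDKK3, a log2 fold change of 1.11 (SE 0.21; edgeR adjusted p 0.393) in DD against WT. Both had larger log2 fold changes than Ccn2.

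The list was not uniform. Gadd45a, a stress-induced regulator of growth arrest, was at 59.3 and 44.7 CPM in WT, 34.4 and 27.3 CPM in DD, and 30.5 and 25.3 CPM in DD + rDKK3, a log2 fold change of -0.75 (SE 0.20) in DD against WT and -0.90 (SE 0.20) in DD + rDKK3 against WT. The lowest p-values in DD + rDKK3 against DD were those of F3, tissue factor (-0.50, SE 0.19), Nt5e, the CD73 ectonucleotidase (-1.29, SE 0.57), and Tgfb2, a TGF-beta ligand (-0.38, SE 0.27). Nt5e was at 1.47 and 1.76 CPM in WT, 5.44 and 3.35 CPM in DD, and 2.85 and 0.753 CPM in DD + rDKK3. The median of the list in DD + rDKK3 against WT was 0.15, or -0.03 without WT 1, 0.55 without WT 2 and 0.08 without DD + rDKK3 2.

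**Figure D5:**
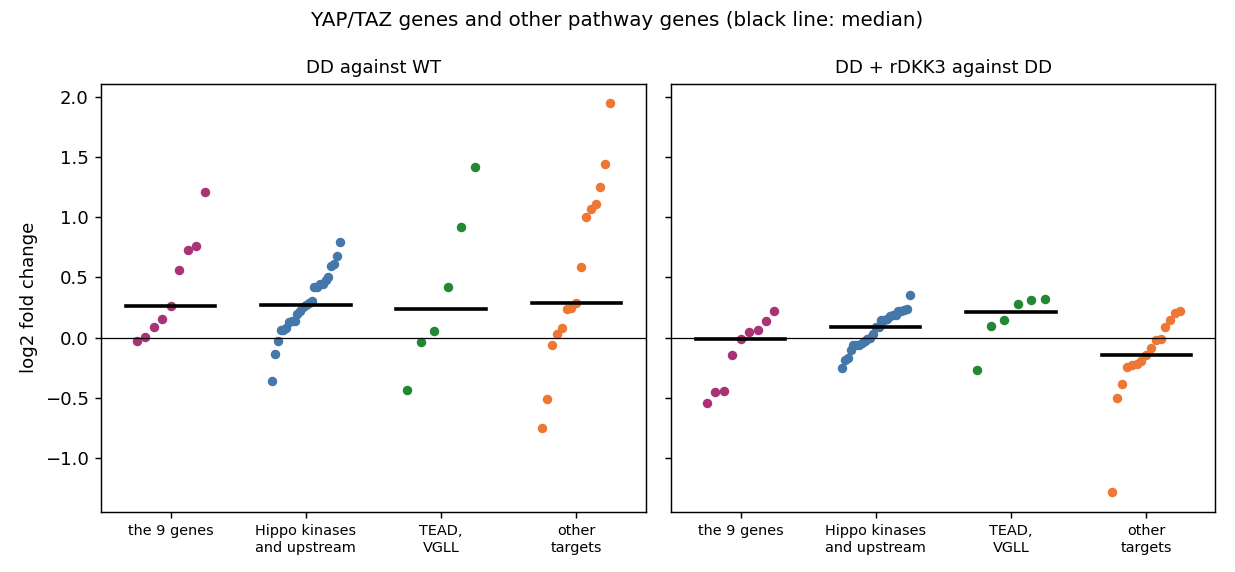
Log2 fold changes (y axis) of the 9 genes and of the genes of 3 other pathway lists (x axis) in DD against WT (left) and DD + rDKK3 against DD (right), 1 point per gene, with a black line at each median. In DD against WT the 4 medians lie between 0.24 and 0.28 with all libraries, but between 0.43 and 0.77 without WT 2, and in DD + rDKK3 against DD the other targets have the lowest median, -0.15.

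Of the other CCN family members, Ccn4 alone passed the filter, and Ccn3, Ccn5 and Ccn6 did not. Ccn4, known from fibroblasts, was at 0.884 and 0.773 CPM in WT, 1.18 and 6.17 CPM in DD, and 1.53 and 7.53 CPM in DD + rDKK3, and so was high in the same libraries as Axl and the fibroblast markers. Against WT, the log2 fold change of Ccn4 in DD came to 2.14 (SE 0.98), or 0.52 without the second library of both null groups. Of the genes that work with Axl, the receptors Tyro3 and Mertk and the ligands Gas6 and Pros1, 0 of 4 passed, and the list median in DD against WT was 0.31, or -0.21 without DD 2 and 0.64 without DD 1. Mertk had a log2 fold change of 0.53 (SE 0.61), Pros1 of 0.49 (SE 0.47) and Tyro3 of 0.13 (SE 0.19) in that comparison, and without the second library of both null groups these were -0.56, -0.40 and 0.29. Pros1 was at 14.1 and 12.1 CPM in DD 2 and DD + rDKK3 2 and at 5.16 to 7.02 CPM in the other libraries.

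The genes whose log2 CPM over the 6 libraries was most like that of Yap1, among 8837 genes of at least moderate level, were Ankrd52 (Pearson r 0.999), Arhgef11 (0.999) and Tlk2 (0.999). Values above 0.95 were shared by 492 genes, 5.57%, and the correlation describes 6 libraries that share their scaling. Those most like Ccn2 were Aldh3a2 (0.999), Gm15270 (0.995) and Pcsk6 (0.991), and 29 genes, 0.328%, were above 0.95. Aldh3a2, a fatty aldehyde dehydrogenase, was at 152 and 181 CPM in WT, 315 and 251 CPM in DD, and 211 and 196 CPM in DD + rDKK3. No test was made of these values.

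Gm15270 is a long non-coding RNA gene on the opposite strand that overlaps Ccn2 by 1667 bases. It was at 9.33 and 10.6 CPM in WT, 20.3 and 15.5 CPM in DD, and 13.2 and 12.8 CPM in DD + rDKK3. Its counts were between 0.287 and 0.317 times those of Ccn2 in every library, and those of another antisense gene were between 0.353 and 0.473 times those of Ankrd1. The counting was strand-specific per the study's methods, but the share of reads that a directional library assigns to the wrong strand was not tested.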

How the data were processed

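The authors aligned strand-specific paired-end reads with STAR (2.7.9a) to GRCm39 with GENCODE M32 and deposited 1 table of raw counts per gene for the 6 libraries, without pooling or normalisation. Rows for 92 spike-in RNAs, all at 0 counts, were left out. Strand-specific counting limits, but need not remove, reads from antisense genes.

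Starting from these deposited counts, filterByExpr was applied (minimum count 10, minimum total 15), which left 14738 genes. Counts were TMM-scaled and fitted with edgeR 4.0.16 (R 4.3.3; glmQLFit and glmQLFTest, two-sided) over all 6 libraries in 3 groups, with 3 residual and 4.634 prior degrees of freedom. P-values were Benjamini-Hochberg adjusted over all 14738 genes and called under 0.05. Intervals of fold changes are 95% intervals of that fit, and Poisson intervals are exact and cover counting error only. Totals ranged from 12018473 to 19750401 counts. The edgeR fit of DD against WT was tested on simulated counts, and the other steps were not.

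Alternatives were RLE scaling, library size alone, TMM without acinar enzymes, no low-count filter, a minimum count of 50, DESeq2 1.42.0, limma-voom (limma 3.58.1), the 4 libraries compared alone, replicate blocks, a prior count of 0.5, and leaving out each library in turn. Leaving out DD 2 and DD + rDKK3 2 together was chosen after seeing the data.

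The 9 genes, lists and markers were chosen with earlier results of these data known. Besides the 9 genes, the text names up to 3 genes of each pathway list with the smallest p per comparison, the 3 genes most like Yap1 and Ccn2 by Pearson r (average log2 CPM of at least 3), and Dkk3. Col1a1, Gas6, Ptf1a, Bhlha15, Rbpjl, Nr5a2, Msln, Des, the named macrophage markers and genes named as not tested or at 0 were added after their values were seen. Exonic lengths and promoters came from GENCODE M39, on the same build, in which the coordinates of none of the 9 genes matched those used for counting. Replicate numbers were treated as numbers only, since the titles share DD1 and DD2 across the null groups but the labelled ages differ. The promoter of 1 of the 9 genes and 1 gene of the pathway lists that met the naming rule are not reported here.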

Additional observations from a re-analysis of the deposited data

How the results depend on the processing

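With 2 libraries a group, what passed adjustment depended on the tool and filter. Taking DD against WT first, then DD + rDKK3 against DD, then DD + rDKK3 against WT, genes called numbered 6, 0 and 7 with edgeR, 528, 73 and 788 without a low-count filter, and 78, 11 and 58 with DESeq2; limma-voom gave 3 in the last. Without the filter 3 members were called in DD against WT, Ccn2 (0.81, adjusted p 0.00200), Ajuba (0.78, 0.0372) and Axl (1.27, 4.306e-06), and 2 in DD + rDKK3 against WT, Amotl2 (0.83, 0.00172) and Axl (1.25, 7.494e-06). DESeq2 called 1 member in each of those, Ccn2 (0.77, adjusted p 0.0266) and Amotl2 (0.78, 0.0289). The cause was not tested.

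Over 17 settings, 11 of the 27 member comparisons changed sign somewhere. None of these passed with the filter in place, but Axl in DD against WT, which was among them, passed without it. Library size alone moved the all-gene median to 0.22 (DD against WT) and 0.18 (DD + rDKK3 against WT), and that of the members to 0.46 and 0.43; Wwtr1 in DD against WT became 0.18 and Ccn1 in DD + rDKK3 against WT 0.028. Without the filter Wwtr1 became 0.022 in DD against WT, and limma-voom gave Axl 0.11 in DD + rDKK3 against DD. With only library 1 of each null group, DD against WT had 14 calls and gave 0.066 for Wwtr1, -0.0050 for Ccn1, -0.059 for Lats2 and -0.0022 for Axl; DD + rDKK3 against DD gave -0.13 for Wwtr1 and 0.28 for Axl, and DD + rDKK3 against WT -0.062 for Wwtr1.

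The sample titles share DD1 and DD2 between same-numbered DD and DD + rDKK3 libraries. Their labelled ages differ, at 12 and 14 weeks for number 1 and 13 and 15 weeks for number 2. Whether those libraries came from the same animals cannot be told, and the main fit left them unpaired. Deviations of same-numbered libraries correlated at -0.39 (WT and DD), -0.25 (WT and DD + rDKK3) and 0.65 (DD and DD + rDKK3). A replicate block over all libraries gave Axl 0.034 in DD + rDKK3 against DD. A replicate block within the null libraries gave 20 and 15 calls against WT for DD and DD + rDKK3, with Ccn1 at -0.078 and Lats2 at -0.012 in DD against WT and Axl at 0.073 in DD + rDKK3 against DD.

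Leaving out 1 library gave 2 (without WT 1) to 6 calls in DD against WT, 0 in DD + rDKK3 against DD, and 2 (without WT 1) to 9 (without DD 1) in DD + rDKK3 against WT. In DD against WT the range was -0.12 to 0.069 for Wwtr1, -0.027 to 0.060 for Ccn1, -0.38 to 0.87 for Ankrd1, -0.057 to 0.56 for Lats2 and 0.0051 to 1.89 for Axl, and 0.16 to 0.77 for the median of the members. In DD + rDKK3 against DD it was -0.042 to 0.15 for Wwtr1, -0.15 to 0.46 for Lats2, -0.95 to 1.19 for Axl and -0.33 to 0.051 for the median. In DD + rDKK3 against WT it was -0.062 to 0.12 for Wwtr1, -0.31 to 0.013 for Ccn1 and -0.91 to 0.32 for Ankrd1. The lone library left in a group was assumed to vary like those of the other groups. A prior count of 0.5 moved the log2 CPM of the members by at most 0.025 (Lats2).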
